A study of Bos taurus with 8 samples.

Results

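The transcriptome described here is that of unexposed in vitro produced bovine blastocysts, read from the control channel of each of 8 two-colour microarrays. Every array carried RNA of embryos cultured with AAPH, whose breakdown releases peroxyl radicals, in 1 dye and RNA of embryos cultured without it in the other. The members are the 8 control channels of the 16 channels in all, chosen by the labels: the Cy3 channel of arrays 1, 2, 7 and 8 and the Cy5 channel of arrays 3, 4, 5 and 6. No ratio to AAPH RNA enters the main values given here. An alternative scaling, used only to see how results depend on the processing, read both channels.

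Both groups of embryos were matured, fertilized and cultured in synthetic oviductal fluid from oocytes of slaughterhouse ovaries. Controls received no AAPH, whereas treated embryos were given 0.01 mM from day 3, again in the medium supplied at day 5, and until day 7. Each sample was a pool of 10 blastocysts collected 196 hours after fertilization, and its RNA was amplified before labelling. According to the series' design, each treatment had 4 pools and each dye orientation 4 arrays, and the labels do not say which arrays share a pool. A pool averages 10 embryos of unstated sex and grade, so a value says nothing about a single embryo, and in such bulk RNA fewer cells of a type cannot be told apart from less RNA per cell.

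The blastocyst is the stage at which the mammalian embryo first consists of separate lineages. An outer epithelium, the trophectoderm, pumps ions and water into the blastocoel and in ruminants secretes interferon tau, the signal by which the conceptus is recognised by the mother. The inner cell mass inside it holds the pluripotent epiblast and gives rise to the hypoblast, the later lining of the yolk sac. Around this stage the embryo turns from pyruvate and lactate towards glucose as a fuel while mitochondrial respiration goes on.

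Signal is given as the log2 of the background-corrected intensity after the 8 channels had been scaled to a shared distribution. A gene is represented by its brightest probe unless stated otherwise. Some genes, such as SOX2, CDH1, FASN and IDH2, have a single probe, and how well it binds was not tested. Brightness mixes the amount of a transcript with how well its probe binds, how the transcript was amplified and where saturation sets in, so an order of brightness between genes is an order of probes and not of transcript amounts. A gene was called detected on an array when any of its probes exceeded the median of that array's 153 negative control spots by 3 median absolute deviations (MAD). Before scaling, this threshold lay between 6.47 on array 3 and 7.35 on array 5 on the log2 scale, so levels near 7 lie at the limit of detection.

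Detection differed between arrays, and so did the spread of their negative controls. Between 15957 of the 43794 probes (36.4%, array 5) and 36066 (82.3%, array 1) were detected. Arrays 5 and 6, both on slide 78, had the fewest detected probes and the widest negative controls, with a MAD of 17.7 and 15.1 intensity units against 3.62 to 6.89 on the other 6 arrays. Counts of genes detected on all 8 arrays are therefore also given without arrays 5 and 6.

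Of the 15229 genes named in the annotation, 7116 (46.7%) were detected on all 8 arrays and 1159 (7.61%) on none. Without arrays 5 and 6, 10546 genes (69.2%) were detected on all of the other 6. A stricter threshold of 2 times the median of the negative controls left 5642 genes (37%) on all 8 arrays. These shares are the background against which each list of genes is read.

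The 20 brightest genes included the ribosomal protein genes RPS21, RPS29, RPS2, RPS13, RPL12, RPS3 and RPS6, the translation initiation factor EIF1, and ACTG1, which encodes cytoplasmic gamma actin. The epithelial keratin KRT8, the extracellular matrix protein fibronectin (FN1), the cytochrome c oxidase subunit COX5A, the chaperone HSP90AA1, the protein disulfide isomerase PDIA6 and the ubiquitin ligase subunit RBX1 were among them too. The others were LOC783641, LOC525649, LOC787484, LOC784773 and LOC614366, of which the last 4 are pseudogenes in the RefSeq table, so their probes may report a near-identical gene.

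The order within these 20 genes was not resolved. Their means ran from 15.11 to 15.17 log2 units, with SDs of 0.018 to 0.12 over 8 arrays. For 16 of the 20 the probe exceeded 80% of the highest foreground of the array on all 8 arrays, as did 88 probes in all, so their signal lay close to the top of the range. RPS21 read 15.13 on its lowest array and 15.20 on its highest, and ACTG1 read 15.10 and 15.21. KRT8 read 14.85 on array 1 and between 15.10 and 15.22 on the other 7 arrays. All 42 matched members of the ribosomal protein list, which does not hold RPL12, were detected on all 8 arrays at both thresholds, and 30 of them stood in the brightest 10% of all named genes. The dimmest of them, RPS14, had a mean of 9.56 ± 0.36 (SD, n = 8 arrays). Throughout, n = 8 counts arrays, and these were made from 4 pools.

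**Figure D1:**
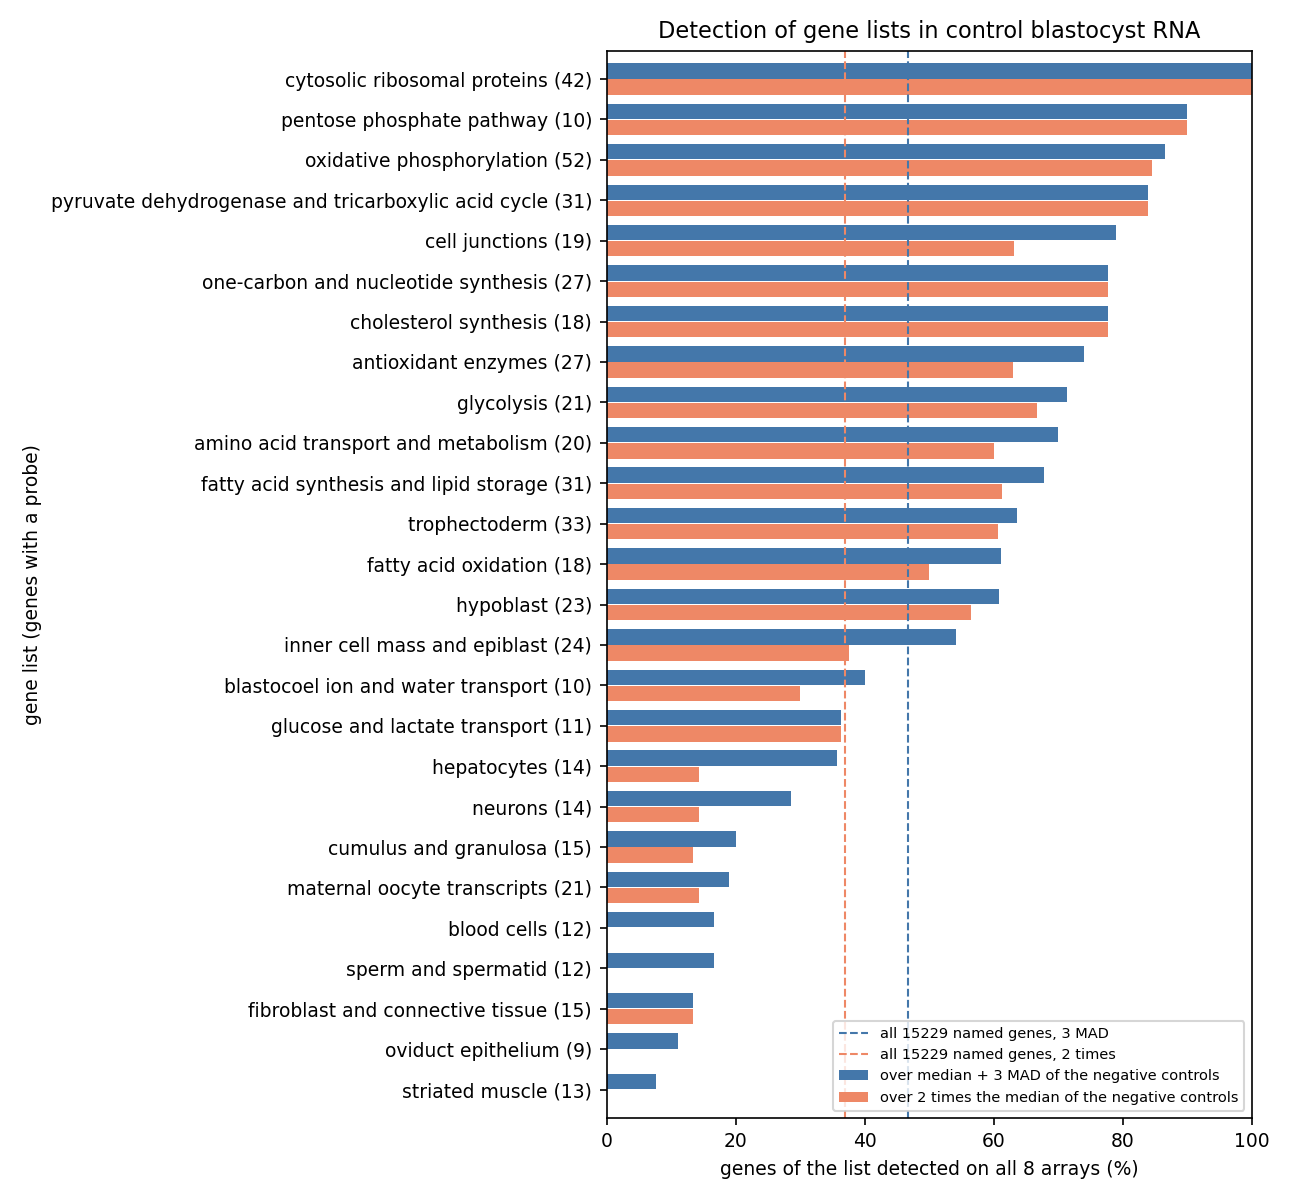
The horizontal axis gives the percentage of each list's genes detected on all 8 control channels, for 26 lists with the number of genes that have a probe in brackets. Blue bars use the threshold of 3 MAD over the negative controls and orange bars 2 times their median; dashed lines mark 46.7% and 37% of all named genes. Ribosomal protein genes reach 100% and striated muscle genes 7.69% at the first threshold.

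Genes of all the embryo's lineages were detected, and several of their transcription factors gave signals near the limit of detection. Of 80 genes on the trophectoderm, inner cell mass and hypoblast lists, 48 (60%) were detected on all 8 arrays and 42 (52.5%) at the stricter threshold. Without arrays 5 and 6 the count was 64 (80%), and 3 genes were detected on no array. Each of the 3 shares lay above that of all named genes under the same rule.

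In the trophectoderm list 21 of 33 genes were detected on all 8 arrays, 20 of them at the stricter threshold as well, and 9 stood in the brightest 10%. Besides KRT8, the genes PLAC8 (14.84 ± 0.17), a placenta-associated gene, TFAP2C (14.78 ± 0.16), a transcription factor of the trophoblast, and SLC2A3 (15.05 ± 0.053), a glucose transporter, were bright on every array. IFNT, which encodes interferon tau, had its lowest value at 13.44, its median at 14.67 and its highest at 14.90, and arrays 6 and 8 were its lowest. The keratin KRT18 ranged from 13.10 through a median of 13.60 to 14.36. GATA2, a trophoblast transcription factor, had a mean of 12.04 ± 0.19, and DLX3, a homeobox factor of the placenta, of 9.65 ± 0.17.

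Several regulators that define the trophectoderm in the mouse gave little signal, and CDX2, GATA3, EOMES and ELF5 were each read by a single probe. CDX2, a factor of trophectoderm identity, was detected on 5 arrays, with a lowest value of 6.71, a median of 7.11 and a highest of 7.28, and it passed the stricter threshold on none. TEAD4, which acts upstream of CDX2 in the mouse, was detected on 5 arrays at a mean of 7.14 ± 0.32, and EOMES on 3 arrays at 6.58 ± 0.14. ELF5 was detected on all 8 arrays at 7.21 ± 0.19 but on none at the stricter threshold. GATA3 read 7.09 on its lowest array, 7.81 at the median and 7.99 on its highest, and was detected on 7 arrays. At the stricter threshold GATA3 was detected on 5 arrays and TEAD4 on 3. The values of CDX2, TEAD4, EOMES and ELF5 lie within about 1 log2 unit of the thresholds, so an ordering among their probes is not readable. GATA3 lay further above on some arrays, at 7.99 on array 3 against a threshold of 6.47.

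In the ruminant placental families, some members were detected on every array and others on few. Of the trophoblast Kunitz domain proteins, which are secreted by the ruminant trophoblast, TKDP1 (11.45 ± 1.41) and TKDP2 (11.11 ± 0.51) were detected on all 8 arrays, whereas TKDP4 (6.74 ± 0.058) was detected on 5. Among the pregnancy-associated glycoproteins, PAG2 (10.72 ± 0.86), PAG12 (9.17 ± 0.78) and PAG8 (8.62 ± 0.29) were detected on all 8 arrays, PAG11 on 7 and PAG1 on 1. Both families have many similar members, so their probes may report more than 1 gene.

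On the inner cell mass and epiblast list 13 of 24 genes were detected on all 8 arrays and 9 at the stricter threshold, which is 37.5% and close to the 37% of all named genes. POU5F1, the pluripotency factor also called OCT4, read 9.92 on its lowest array, 10.93 at the median and 11.14 on its highest. KLF4 (13.28 ± 0.38), DPPA3 (11.91 ± 0.38), KLF5 (10.67 ± 0.26) and the de novo DNA methyltransferase DNMT3B (10.00 ± 0.64) were detected on every array. NANOG, the pluripotency factor that varied most, is described below with the genes that differed between arrays.

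SOX2, a partner of POU5F1, was detected on 6 arrays between 6.85 and 7.22 with a median of 6.92, and on none at the stricter threshold. FGF4, the growth factor by which epiblast cells signal to hypoblast precursors in the mouse, was detected on 5 arrays at 7.00 ± 0.16, and SALL4 on 4 at 6.77 ± 0.36. TFCP2L1, a factor of naive pluripotency in the mouse, was detected on none and had a mean of 6.39 ± 0.10.

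Hypoblast genes were detected in 14 of 23 cases on all 8 arrays and in 13 at the stricter threshold. The early endoderm factor GATA4 read 10.59 on its lowest array, 11.71 at the median and 12.84 on its highest, and HNF4A, a nuclear receptor of endoderm, read 12.55, 13.28 and 13.99. PDGFRA (11.66 ± 0.42), a receptor that marks hypoblast precursors in the mouse, and DAB2 (14.78 ± 0.23), an endocytic adaptor of the visceral endoderm, were detected on every array. The basement membrane genes LAMC1 (12.09 ± 0.39), LAMA1 (12.05 ± 0.23) and COL4A1 (10.61 ± 0.34) were detected on every array as well, and COL4A2 (7.31 ± 0.41) on 6. SOX17, another endoderm factor, was detected on 4 arrays at 6.76 ± 0.12. Neither SOX7 (6.47 ± 0.12) nor the endocytic receptor CUBN (6.32 ± 0.16) was detected on any. GATA6 has no probe under that name in the annotation used here.

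**Figure D2:**
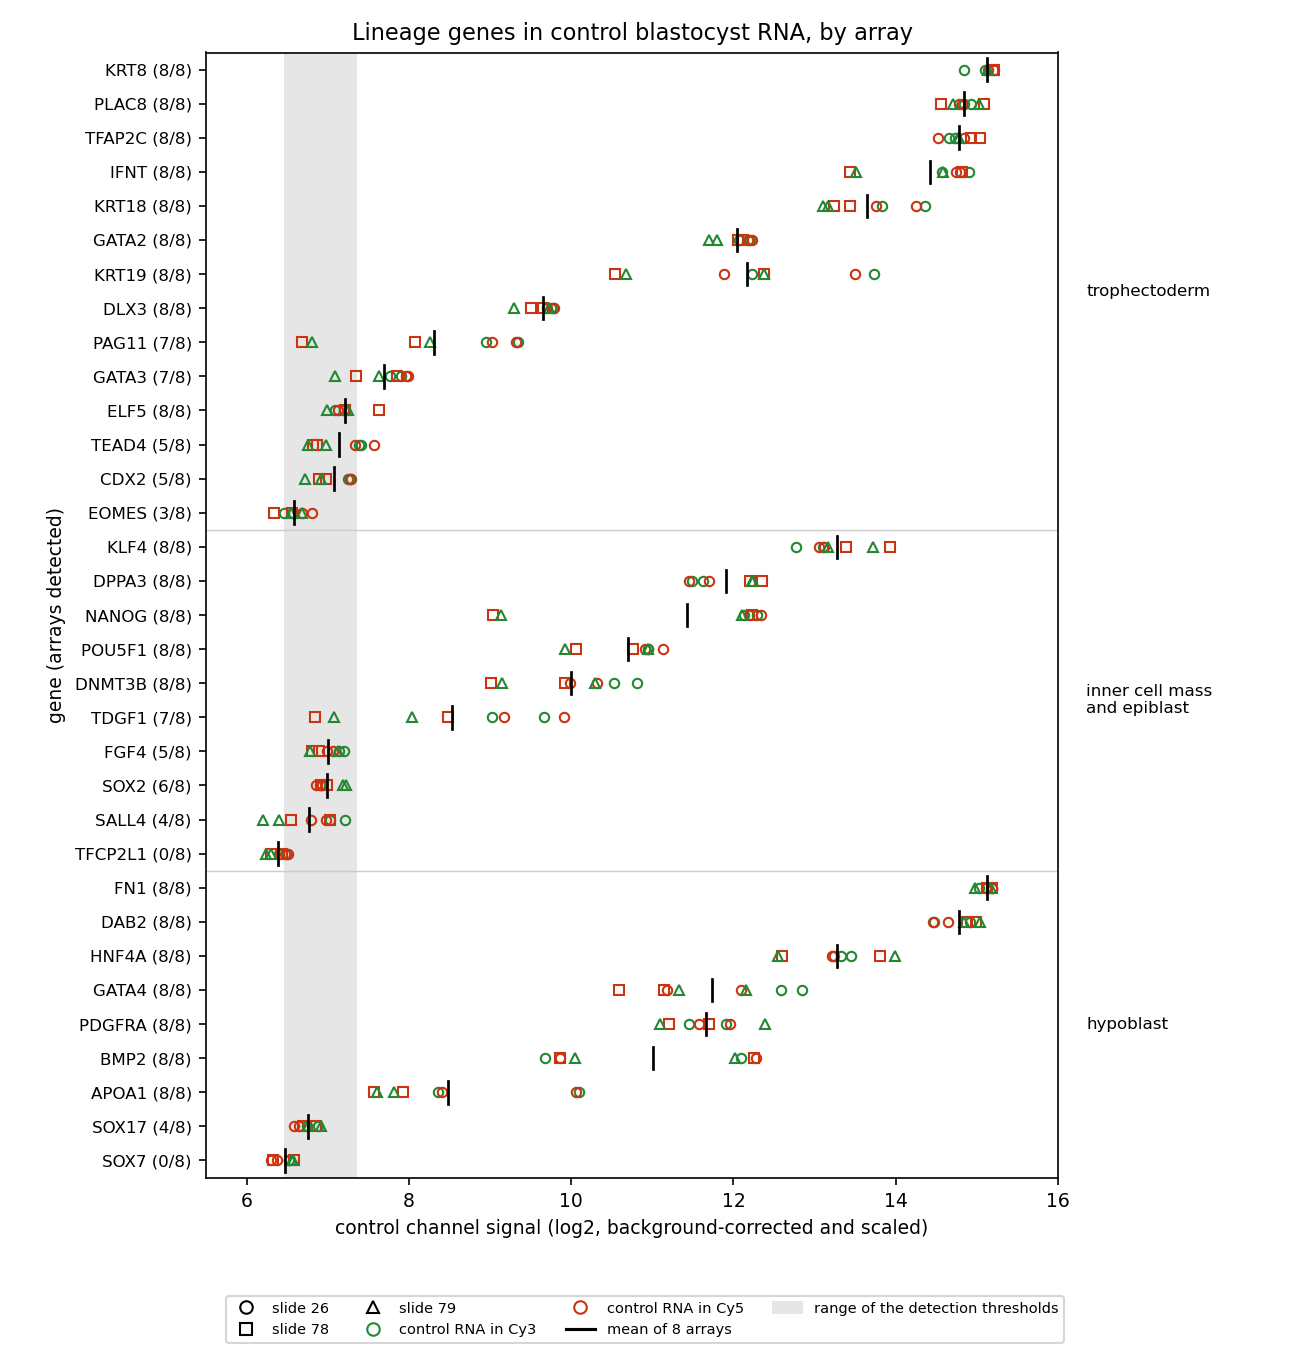
Each point is the control channel signal of 1 array in log2 units, with slides as marker shapes and dyes as colours, and black bars are means over 8 arrays. The grey band spans the detection thresholds of 6.47 to 7.35 before scaling. CDX2, EOMES, SOX2, FGF4 and SOX17 lie in or beside the band, while NANOG falls into 6 values above 12.1 and 2 near 9.1.

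Junction genes, which seal the epithelium, were detected on all 8 arrays in 15 of 19 cases (78.9%, against 46.7% of all named genes), and 10 stood in the brightest 10%. CTNNA1 (15.05 ± 0.051) and CTNNB1 (13.19 ± 0.42), the catenins of adherens junctions, DSG2 (14.85 ± 0.23) of desmosomes, and CLDN4 (14.82 ± 0.17) and TJP1 (14.51 ± 0.24) of tight junctions were bright on every array. EPCAM, an epithelial adhesion molecule, had a mean of 14.61 ± 0.18. CDH1, which encodes E-cadherin, was by contrast detected on 6 arrays at 6.96 ± 0.17 and on none at the stricter threshold.

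Of 10 blastocoel transport genes, 4 were detected on all 8 arrays and 6 without arrays 5 and 6, shares of 40% and 60% that lie near the 46.7% and 69.2% of all named genes. ATP1B3, a beta subunit of the sodium pump, read 14.95 on its lowest array, 15.10 at the median and 15.14 on its highest. ATP1B1, the other beta subunit usually studied at cavitation, was detected on 3 arrays at 6.63 ± 0.14. The aquaporins AQP3 (10.90 ± 0.38) and AQP11 (8.46 ± 0.33) were detected on all 8 arrays, and AQP7, AQP8 and AQP9 on 5, 6 and 2.

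Metabolic genes were detected more often than named genes in general, but not in every list. Over 11 metabolic lists, 200 of 266 genes (75.2%) were detected on all 8 arrays, 189 (71.1%) at the stricter threshold, 233 (87.6%) without arrays 5 and 6, and 5 on no array. The share of all named genes was 46.7%, 37% and 69.2% under the same 3 rules.

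Of 11 glucose and monocarboxylate transporter genes, 4 (36.4%, against 46.7% of all named genes) were detected on all 8 arrays: the glucose transporters SLC2A3 and SLC2A1 (11.75 ± 0.28), and the monocarboxylate transporters SLC16A1 (14.11 ± 0.20) and SLC16A3 (8.69 ± 0.33). The insulin-regulated SLC2A4 was detected on 4 arrays at 6.74 ± 0.17 and the liver type SLC2A2 on 3 at 6.73 ± 0.12. SLC2A3 varied little, from 14.99 to 15.14, but lay close to the top of the range.

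In glycolysis 15 of 21 genes were detected on all 8 arrays. Both subunit genes of lactate dehydrogenase were bright: LDHA read 13.62 on its lowest array, 14.06 at the median and 14.67 on its highest, and LDHB read 13.65, 14.64 and 14.79. Hexokinase 2 (HK2, 11.96 ± 0.39) and hexokinase 1 (HK1, 8.23 ± 0.38), which commit glucose to the cell, were detected on every array, as were PGAM1 (14.82 ± 0.087) and PGK1 (13.01 ± 0.69) of the lower pathway. ALDOC, an aldolase known from brain, was detected on none. TPI1 and ENO1 belong to the genes that differed most between arrays and are taken up with them. GAPDH and PKM2 have no probe under those names here.

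The pentose phosphate pathway, which yields NADPH and ribose, was detected in 9 of 10 genes on all 8 arrays at both thresholds. Its values included PGD (12.39 ± 0.45), TALDO1 (11.01 ± 0.44) and TKT (10.70 ± 0.52). In the brightest 10% stood 1 of the 10 genes, the same share as of all named genes.

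Mitochondrial genes were both widely detected and bright. In the pyruvate dehydrogenase and tricarboxylic acid cycle list 26 of 31 genes were detected on all 8 arrays at both thresholds, and 15 stood in the brightest 10%. Citrate synthase (CS) read 14.32 on its lowest array, 14.70 at the median and 14.87 on its highest. The cytosolic isocitrate dehydrogenase IDH1 had a mean of 15.09 ± 0.039, and IDH3A, of the NAD-dependent mitochondrial enzyme, 13.79 ± 0.15. The mitochondrial NADP-dependent IDH2 was the only gene of the list detected on no array, at 6.15 ± 0.13. PDHA1, the catalytic alpha subunit of pyruvate dehydrogenase, read 11.61, 12.26 and 12.87.

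Oxidative phosphorylation had 45 of 52 genes detected on all 8 arrays, 44 at the stricter threshold and 35 in the brightest 10%. After COX5A its brightest genes were CYCS (15.08 ± 0.031), which encodes cytochrome c, and the ATP synthase subunit ATP5A1 (15.06 ± 0.040). The heart and muscle isoform COX6A2 was detected on no array, and COX7A1, of the same tissues, on 2. The ubiquitous partner COX6A1 was detected on all 8 arrays at 14.31 ± 0.22, as was COX7A2 at 14.16 ± 0.27.

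In fatty acid synthesis and storage 21 of 31 genes were detected on all 8 arrays, among them the desaturase SCD, which read 13.37 on its lowest array, 14.20 at the median and 14.45 on its highest. ACSL3 (14.45 ± 0.18), which activates fatty acids, ACLY (13.24 ± 0.19), which makes cytosolic acetyl-CoA, and the lipid droplet coat PLIN2 (12.80 ± 0.15) were detected on every array. FASN, the fatty acid synthase itself, was detected on 6 arrays at 7.49 ± 0.37, ACACA, the carboxylase before it, on 5 at 6.98 ± 0.43, and the hormone-sensitive lipase LIPE on none.

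Fatty acid oxidation had 11 of 18 genes on all 8 arrays and 2 in the brightest 10%. CPT1A, the gate of mitochondrial import, was detected on 6 arrays between 6.77 and 7.38 with a median of 7.08, and on none at the stricter threshold, and CPT1B was detected on 1. CPT2, which acts after it, was detected on all 8 arrays at 9.88 ± 0.32. Among enzymes of the matrix HADHB (11.97 ± 0.38), ECHS1 (11.53 ± 0.43), ACADM (11.32 ± 0.26) and ACADS (7.59 ± 0.13) were detected on every array and ACADVL (6.96 ± 0.27) on 6. Cholesterol synthesis had 14 of 18 genes on all 8 arrays and 9 in the brightest 10%, led by HMGCS1 (14.67 ± 0.13) and CYP51A1 (14.44 ± 0.32).

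The remaining biosynthetic lists lay above the background as well. One-carbon and nucleotide synthesis had 21 of 27 genes on all 8 arrays at both thresholds, with the ribonucleotide reductase subunit RRM2 (13.75 ± 0.22) and the serine synthesis enzyme PSAT1 (13.50 ± 0.42) the brightest. Amino acid transport and metabolism had 14 of 20 genes, with asparagine synthetase (ASNS, 13.78 ± 0.18) and the leucine transporter SLC7A5 (13.68 ± 0.47) the brightest, and SLC38A1 detected on no array.

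Antioxidant enzymes, which remove peroxides and superoxide, were widely detected in these unexposed embryos. Of 27 genes, 20 were detected on all 8 arrays, 17 at the stricter threshold, 11 stood in the brightest 10%, and all 27 were detected on at least 1 array. Thioredoxin reductase 1 (TXNRD1, 15.11 ± 0.035), PRDX6 (14.90 ± 0.10), PRDX1 (14.63 ± 0.29) and thioredoxin (TXN, 13.92 ± 0.12) were bright on every array. Catalase (CAT) read 12.99 on its lowest array, 13.30 at the median and 14.10 on its highest, SOD2 read 13.54, 13.71 and 14.39, and GPX4 read 10.76, 11.38 and 12.20. The glutathione synthesis gene GCLM was detected on all 8 arrays at 11.36 ± 0.15, its partner GCLC on 7 at 6.95 ± 0.15 and glutathione synthetase (GSS) on 5 at 6.71 ± 0.065.

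**Figure D3:**
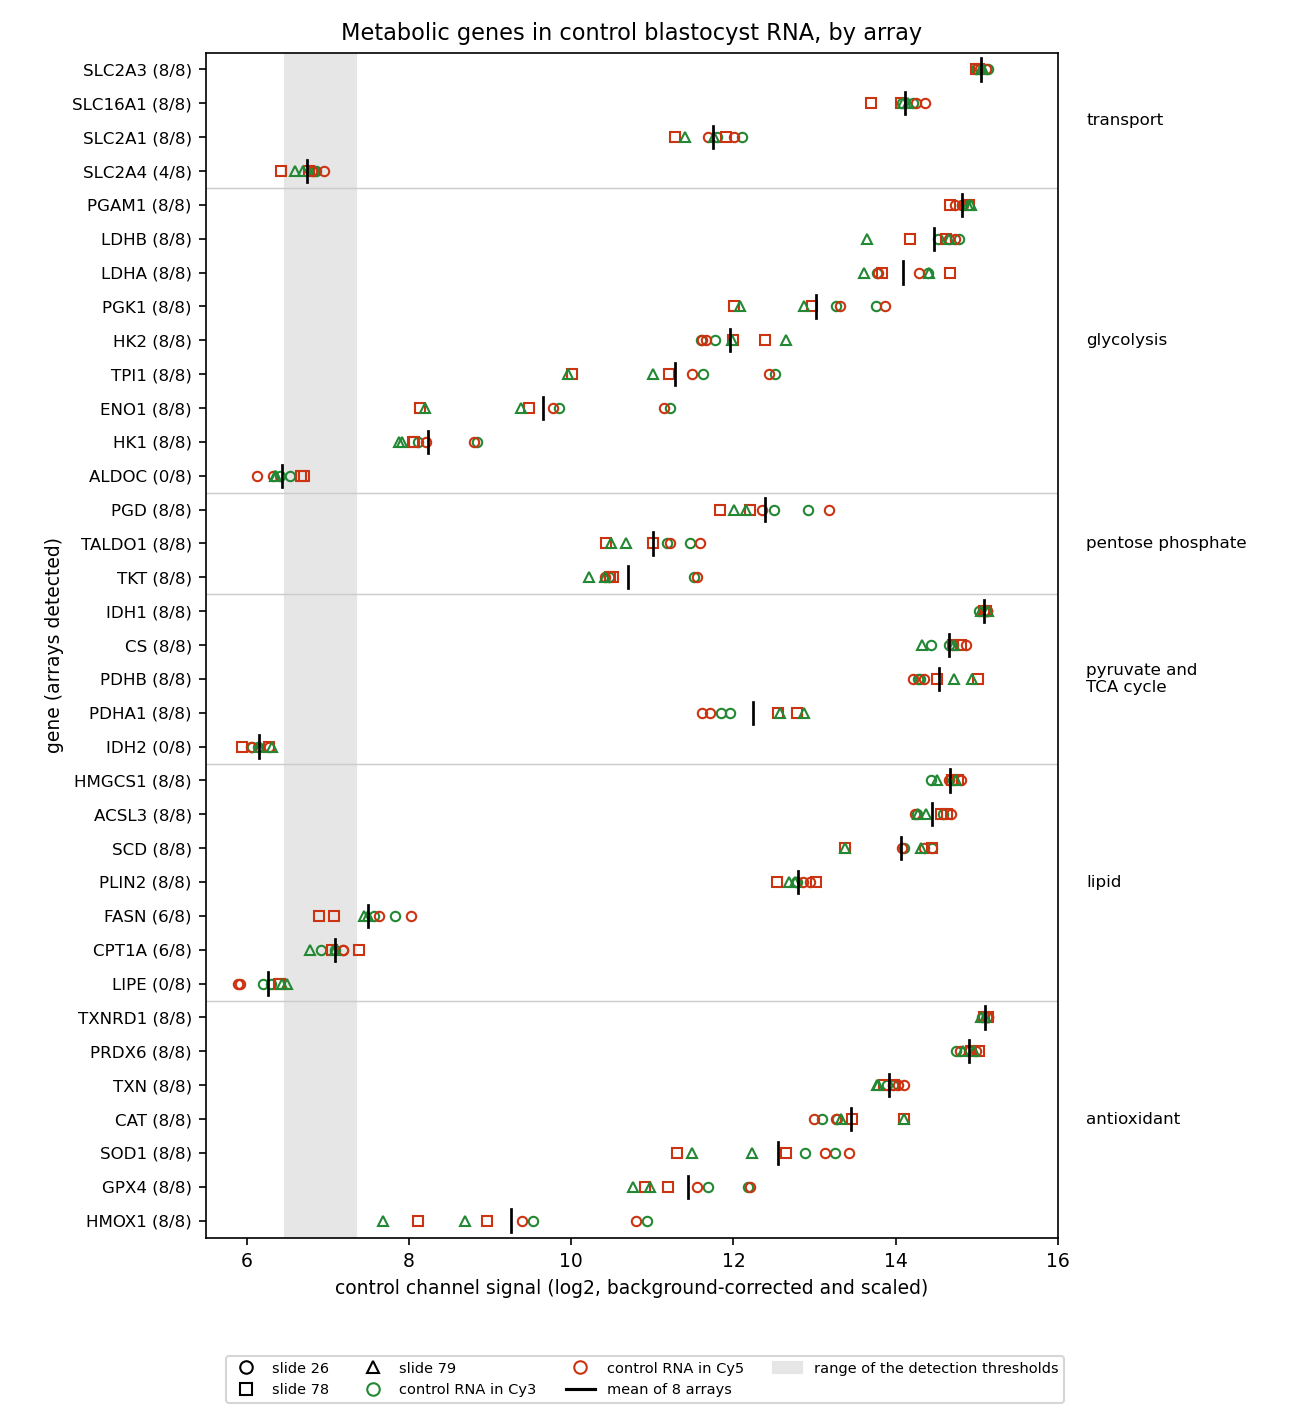
Each point is the control channel signal of 1 array in log2 units for metabolic genes, with slides as marker shapes, dyes as colours and black bars for means over 8 arrays. The grey band spans the detection thresholds of 6.47 to 7.35 before scaling. FASN and CPT1A lie in or beside the band, IDH2 and LIPE below it, and HMOX1, ENO1 and TPI1 are spread widely.

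Genes of other cell types were mostly near the limit of detection. Over 9 lists for the oocyte, cumulus and granulosa cells, fibroblasts, sperm, blood, neurons, striated muscle, hepatocytes and oviduct epithelium, 24 of 125 genes (19.2%) were detected on all 8 arrays, 11 (8.8%) at the stricter threshold, and 67 (53.6%) without arrays 5 and 6. These joint shares were below those of all named genes, although the neuron list alone stood at 71.4% without arrays 5 and 6. The median level of a list on an array ran from 6.60 to 6.81 for striated muscle, from 6.64 to 6.89 for sperm, from 6.77 to 7.12 for blood cells and from 6.76 to 7.01 for cumulus and granulosa cells, against 7.32 to 7.37 for all named genes. It ran from 6.68 to 7.16 for oviduct epithelium, from 6.97 to 7.17 for hepatocytes and from 6.99 to 7.15 for the oocyte. The neuron list, from 6.86 to 7.39, and the fibroblast list, from 6.96 to 7.63, reached above the range of all named genes.

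Some markers of these cells were at or near the floor, while others on the same lists were detected on every array. Among the maternal transcripts, which the oocyte stores and the embryo later degrades, GDF9 was detected on no array, ZAR1 on 1 and PADI6 on 3. The anti-Müllerian hormone gene AMH of granulosa cells, the B cell gene CD79A, the fibroblast genes FAP and PRRX1 and the troponin gene TNNT3 were detected on none, and albumin (ALB) and the oviductal glycoprotein OVGP1 were detected on 2 and 1. The exceptions detected on all 8 arrays at the stricter threshold were the 11 genes DPPA3, TLE6, DDX4, STAR, SERPINE2, COL1A2, LUM, SNAP25, TUBB3, FGB and CPS1. Detected on all 8 arrays at the first threshold only were, among others, PTPRC and CD3E of blood cells, PRM1 and ZPBP of sperm, MB of muscle and INHBA of granulosa cells. VIM of the fibroblast list was detected on 7 arrays and is described below. Without arrays 5 and 6 the blood cell list stood at 66.7%, near the 69.2% of all named genes. DPPA3, which is also on the epiblast list, is given above. SERPINE2, a protease inhibitor, had a mean of 12.89 ± 0.38, COL1A2, a collagen chain, 11.61 ± 0.35, and STAR, which brings cholesterol to steroid synthesis, 9.63 ± 0.47. The part of such cells in these values was not tested.

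Differences between arrays followed pairs of arrays of opposite dye. When each dye's mean was subtracted, each Cy3 array correlated best with a single Cy5 array over 31618 probes detected on at least 4 arrays. The best of the 24 possible pairings joined arrays 1 and 3, 2 and 4, 7 and 5, and 8 and 6, with Pearson correlations of 0.70 to 0.81, whereas the 12 other combinations lay between -0.48 and 0.29. These correlations are across probes, which are not independent, and arrays of a pair also share a slide or the same position on slides 78 and 79. Subtracting a mean of only 4 arrays also lowers the other correlations of an array wherever 1 is high. Without it, over probes detected on all 8 arrays, the pairs reached 0.9844 to 0.9940. Other arrays of the same slide set reached 0.9423 to 0.9847, so the ranges overlapped slightly. The pairs, in the order given above, are called inferred pools 1 to 4 below. They come from the data and not from the labels, so no gene was tested between single pools. Where they enter a limma fit below, the pairs had been chosen by their correlation in these same values. Counts from such fits are therefore a description only.

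**Figure D4:**
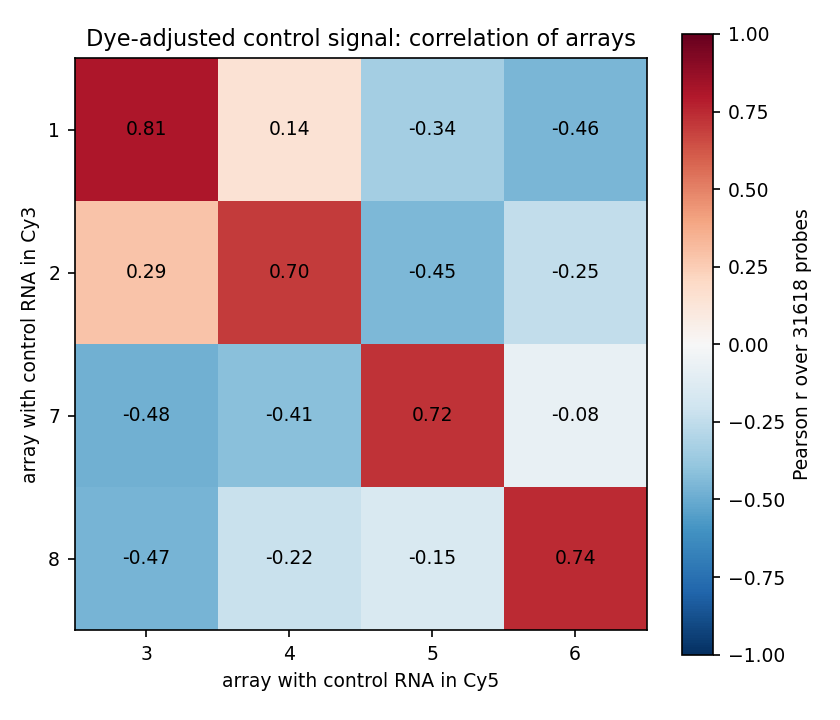
Each cell gives the Pearson correlation between 1 array with control RNA in Cy3 (vertical axis) and 1 with control RNA in Cy5 (horizontal axis), over 31618 probes after each dye's mean was subtracted. The 4 inferred pairs reach 0.70 to 0.81, and the other 12 cells lie between -0.48 and 0.29. The subtraction itself lowers the other cells of a row where 1 is high.

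Most genes varied little between arrays. The SD after subtraction of each dye's mean had a median of 0.25 log2 units over the 12255 named genes with a probe detected on at least 4 arrays, and 10% of them exceeded 0.52. An SD of at least 1 was reached by 96 genes (0.783%). On the lineage lists 8 of 80 genes reached it, on the metabolic lists 3 of 266 and on the 9 lists of other cells 2 of 125. In this ranking each gene stands with its most variable probe.

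The 20 genes with the largest SD ran from STRA6 (2.22) to PLOD2 (1.55), and the next gene below, TKDP1, had 1.52. Of these 20, 13 were high on arrays 1, 3, 5 and 7 and low on arrays 2, 4, 6 and 8, that is, high in inferred pools 1 and 3. They were STRA6, OLR1, LUM, XCL2, GEM, PLAT, NDP, IFITM2, IGFBP7, IFIT5, AXL, SEMA6D and PLOD2. This split crosses the slides, since each slide carried arrays of both kinds, and it crosses the dyes. It coincides with odd and even sub-array positions, from which it cannot be told apart.

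STRA6, which encodes the receptor that takes up retinol, read 11.01, 11.33, 11.28 and 11.32 on arrays 1, 3, 5 and 7 and 7.55, 7.60, 7.26 and 7.21 on arrays 2, 4, 6 and 8. By this probe its lowest and highest arrays differed 17.3-fold and the 2 sets did not overlap, but its other probe, described below, did not show the split. LUM, the matrix proteoglycan lumican, read 10.98, 11.39, 11.33 and 11.02 on the first set and 7.65, 7.88, 7.99 and 7.52 on the second. Other matrix and secreted proteins with the same split were IGFBP7, an IGF-binding protein, with values from 8.12 to 11.54, PLOD2, a collagen lysyl hydroxylase, from 9.12 to 12.30, and PLAT, tissue plasminogen activator, from 6.91 to 10.92. The interferon-induced genes IFITM2 and IFIT5 followed it as well, from 7.44 to 11.19 and from 7.85 to 11.35.

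The split extended beyond the first 20 genes. Of the 96 genes with an SD of at least 1, 39 were high on arrays 1, 3, 5 and 7 only, and 0 were low on those arrays only. The hypoblast genes BMP2, a growth factor, and CDH2, N-cadherin, and the junction gene GJA1, connexin 43, belonged to them. BMP2 read 12.09, 12.28, 12.25 and 12.01 on arrays 1, 3, 5 and 7 and 9.68, 9.86, 9.87 and 10.05 on the other 4. CDH2 read 10.06, 10.09, 9.36 and 9.73 against 8.07, 8.18, 8.22 and 7.80.

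NANOG, VIM and NID1 formed a second pattern, low on arrays 6 and 8 and higher on the other 6. NANOG read 12.29, 12.13, 12.34, 12.19, 12.23 and 12.10 on arrays 1, 2, 3, 4, 5 and 7, and 9.03 and 9.13 on arrays 6 and 8, a 9.88-fold span between the extremes. VIM, the intermediate filament protein vimentin, read 7.12 and 7.50 on arrays 6 and 8, 9.99 and 10.08 on arrays 2 and 4, and 11.58 to 12.09 on arrays 1, 3, 5 and 7. NID1, nidogen of the basement membrane, had an SD of 1.59. TDGF1, a Nodal co-receptor of the epiblast, was also lowest on arrays 6 and 8, at 6.84 and 7.08, whereas POU5F1 was lowest on arrays 5 and 7.

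Some trophectoderm products were lowest in the same inferred pool 4. TKDP1 read 9.54 and 9.28 on arrays 6 and 8 and 11.13 to 12.81 on the other 6, PAG11 read 6.68 and 6.80 against 8.07 to 9.34, and KRT19, a keratin of simple epithelia, read 10.54 and 10.68 against 11.89 to 13.73. Other members of these families differed from them: TKDP2 was highest on array 8, at 11.81, PAG8 read 8.29 and 8.74 on arrays 6 and 8 within a range of 8.22 to 9.03, and PAG12 was lowest on array 5, at 8.24. After subtraction of each dye's mean, arrays 6 and 8 held the 2 lowest values in 9 of the 21 trophectoderm genes whose brightest probe was detected on all 8 arrays (42.9%), and held the 2 highest in 0. Over all 7075 such named genes, the share with the 2 lowest values there was 17.9%, and 1306 genes had the 2 highest there. The 2 lowest lay there in 2 of 12 genes of the inner cell mass list and in 4 of 14 of the hypoblast list. The cholesterol synthesis list reached the same 42.9%, with 6 of 14 genes. Fatty acid oxidation had 36.4%, glycolysis 33.3% and oxidative phosphorylation 15.6%, so a high share was not particular to the trophectoderm list. These pool counts were made after the values had been seen.

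**Figure D5:**
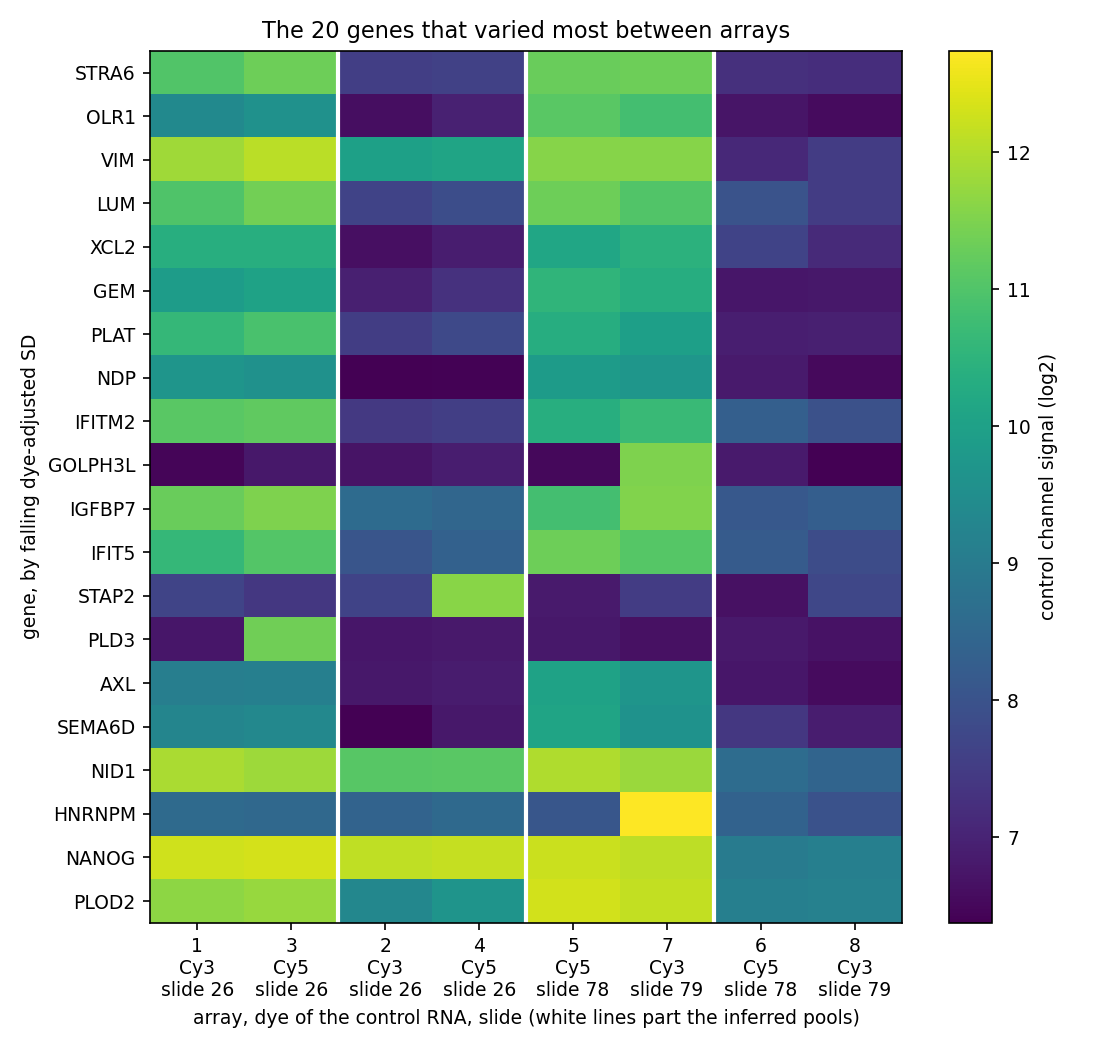
Colour gives the control channel signal in log2 units for the 20 genes with the largest dye-adjusted SD (rows) on 8 arrays (columns), ordered by inferred pool with white lines between them. STRA6 and 12 other genes are bright on arrays 1, 3, 5 and 7, NANOG, VIM and NID1 are dark on arrays 6 and 8, and GOLPH3L, STAP2, PLD3 and HNRNPM are bright on a single array.

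Another kind of variable gene stood out on a single array. GOLPH3L and HNRNPM were high on array 7, STAP2 on array 4 and PLD3 on array 3, and the partner array of the same inferred pool did not share the value. In these 4 genes the largest difference within an inferred pool was 3.39 to 3.98 log2 units, against 0.077 to 0.51 in the other 16. HNRNPM had another probe detected on all 8 arrays, with a mean of 12.19 and an SD of 0.65, which correlated with the first at -0.018. Of the 20 genes, 7 had another probe detected on at least 4 arrays, 11 probes in all, and 3 of these followed the named probe with a correlation above 0.5. Over the 2935 genes with 2 or more such probes, the median correlation of the 2 brightest was 0.258. For NDP, a Wnt-type ligand, 1 other probe correlated with the named one at 0.997 and another, detected on 4 arrays, at 0.289. The other probe of STRA6, detected on all 8 arrays, had an SD of 0.17 and a correlation of -0.127 with the named one, so it did not show the split. NANOG, BMP2 and KRT19 each have a single probe. For genes outside the 20, such as CDH2, GJA1, TDGF1, PAG11 and ENO1, other probes were not compared.

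Slide was compared because arrays 1 to 4 lay on slide 26 and the others on slides 78 and 79. With limma, 3726 of 31618 probes (11.8%) differed after Benjamini-Hochberg adjustment at 0.05, 2152 higher on slide 26 and 1574 lower. By the brightest kept probe of each named gene, 6.92% were higher and 6.24% lower. Median centring in place of quantile scaling gave 4280 higher and 466 lower, and with probes detected on all 8 arrays the balance turned, with 1378 higher and 1586 lower. With both arrays of each inferred pool averaged, which left 2 pools against 2, limma called 0 probes (4939 at an unadjusted p under 0.05), and without arrays 5 and 6 it called 0 (7088). The 8-array fit takes arrays of a shared pool as separate samples, so its p-values are too small, and the slide and the pools on it cannot be told apart.

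The probes with the smallest p in that fit showed clear steps between the slides. EIF3D, a translation initiation factor subunit, read 11.79 to 11.95 on slide 26 and 10.43 to 10.60 on the others, a difference of 1.34 (SE 0.075, limma adjusted p = 0.00162). ATP6V1B2, a subunit of the vacuolar proton pump, and CKMT1, mitochondrial creatine kinase, were higher on slide 26 by 1.38 and 1.55 log2 units. MPZL1, DDHD1 and ZNF829 differed by -1.06, -1.01 and -0.97. None of the 6 kept an adjusted p under 0.05 when the inferred pools were averaged.

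Among the lists, the antioxidant enzymes had the most slide calls in that 8-array fit, 10 of 26 kept genes, all higher on slide 26. Over all kept named genes, 6.92% were higher there and 6.24% lower. The heme oxygenase gene HMOX1 read 10.93, 9.52, 10.80 and 9.39 on arrays 1 to 4 and 8.97, 8.11, 8.68 and 7.67 on arrays 5 to 8. SOD1 read 11.31 on its lowest array, 12.77 at the median and 13.43 on its highest. Of the glycolytic genes, ENO1 was not called for slide in that fit (limma adjusted p = 0.058). It read 11.22, 9.85, 11.14 and 9.77 on arrays 1 to 4 against 9.48, 8.14, 9.38 and 8.20. Within either slide set its arrays of inferred pools 1 and 3 were higher. TPI1 was called for slide in that fit (limma adjusted p = 0.0433). Its inferred pools stood in the same order as those of ENO1, with values from 9.96 on array 8 to 12.51 on array 1. Here as elsewhere, no call remained with pools averaged.

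Between the dyes, 304 of 31618 probes (0.961%) differed by limma, 74 higher in Cy5 and 230 lower. With the inferred pairs as a block in place of slide, limma called 2182 probes, 569 higher in Cy5 and 1613 lower. As these pairs were chosen for likeness in the same values, the spread left in that fit can be too small. Whether the pools stem from different fertilization runs is not stated, so all p-values measure the spread between these arrays, whose number limits the precision.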

How the data were processed

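Per the file headers, the deposited values are linear foreground and background intensities per spot and channel. The submitters' processing notes name limma but give neither version nor settings. The scanner software and the probe build are not given in the sources used here; coordinates and sequences are not shown. Each file's 14 lines of column statistics were left out. The series' table of ratios was not used.

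For the main values the control channel alone was read in R 4.3.3 and limma 3.58.1. Its mean foreground was corrected for median background with normexp (offset 50). Values were then taken to log2 and quantile scaled over the 8 control channels. An alternative scaling by loess within arrays also read the AAPH channel and used its ratio to control RNA. The channel of shorter wavelength was taken as Cy3 and the longer as Cy5. Of 43794 probes, 21790 had 1 symbol in the platform annotation, 0 several and 22004 none. The RefSeq table (ARS-UCD2.0) held 14114 of the 15229 symbols as such, 1019 as synonyms and 96 not at all. Of 599 list entries 542 matched, 3 through a synonym.

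Differences between slides and between dyes were fitted together (limma, dye and slide as terms) over the 31618 probes detected on at least 4 arrays, and the scripts were tested on simulated data. Named genes were the 20 brightest, the 20 of largest dye-adjusted SD, up to 4 brightest and up to 4 undetected genes per list, a fixed set of lineage and metabolic genes, and the 3 of smallest p per direction for slide. Members, lists and thresholds were chosen with earlier results of these data known. Genes outside this rule are list members or genes with an SD of at least 1 named after their values were seen. Alternatives covered background correction, scaling, filters, detection rules and leaving out arrays; those without arrays 5 and 6, with a floor from negative controls and with inferred pairs as a block were added after seeing the data.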

Additional observations from a re-analysis of the deposited data

Results flagged for a closer look

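In 12 of 177 named genes 1 array lay far from the other 7, by the ratio of its gap to the group's range. A rate of 1 in 20 would give about 8.85, but this figure is no yardstick for the 12. It takes the arrays as independent and the genes as chosen without regard to their spread. GOLPH3L, HNRNPM, STAP2 and PLD3 were named for their large SD, and arrays of an inferred pool resemble each other. Array 1 held the lowest value of RPS29 (15.09), RPS13 (14.97), PDIA6 (14.98) and KRT8 (14.85), and array 8 that of LOC614366 (15.01), all near the top of the signal range where a step is small. ATP1B3 was lowest on array 7 at 14.95 and SLC16A1 lowest on array 5 at 13.69. The larger steps were high values: GOLPH3L on array 7 at 11.51, HNRNPM on array 7 at 12.74, STAP2 on array 4 at 11.62 and PLD3 on array 3 at 11.37. GOLPH3L lay between 6.37 and 6.88 on the other arrays and PLD3 between 6.66 and 6.80. ELF5 was highest on array 5 at 7.63, against 6.99 to 7.24 elsewhere. The cause was not tested.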

How the results depend on the processing

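The number of genes detected on all 8 arrays (7116) became 12270 when 4 arrays sufficed, and 7116 to 8118 when 1 array was left out. List members detected stayed within 1.5 times of 333 under all alternatives run, from 299 to 481. The 20 brightest genes shared 14 to 20 genes across alternatives. Of the 20 most variable genes, 11 were shared when only probes detected on all 8 arrays entered and 13 within slide 26. The 96 genes with an SD of at least 1 became 196 with an offset of 0, 153 with a floor from the negative controls, 59 with probes detected on all 8 arrays and 209 within slides 78 and 79. The 304 probes that differed between dyes became 521 with median centring, 731 with no filter, 74 with probes on all 8 arrays, 186 with no background correction, 40 without the slide term, 639 with trend and robust variances, 2182 with the inferred pairs as a replicate block (569 higher in Cy5, 1613 lower), 0 without arrays 5 and 6, and 0 to 89 with 1 array left out. The 3726 slide calls became 0 with inferred pools averaged, 0 without arrays 5 and 6, and 1215 to 3752 with 1 array left out. The last 2 kinds of setting also leave fewer arrays. The cause of these changes was not tested. The slide balance turned from 2152 higher and 1574 lower to 1378 and 1586 with probes detected on all 8 arrays. The pairing was derived from the data, not from the labels. The planned criterion on the SD of the local background was not run, since the columns used hold no such SD. Intensities near the floor, near 7 log2 units, limit what can be said of CDX2, SOX2 or CPT1A.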

Other observations

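XIST, the non-coding RNA that coats the inactive X chromosome, had the split of STRA6 and LUM. It read 9.09, 9.47, 10.39 and 10.31 on arrays 1, 3, 5 and 7 and 7.78, 7.89, 7.70 and 7.64 on arrays 2, 4, 6 and 8, and its sets did not overlap. The Y-linked genes EIF1AY and DDX3Y ran from 6.80 to 7.64 and from 7.06 to 7.95 over the arrays. The detection thresholds before scaling were 6.47 to 7.35, so the highest values of both lay above them. What these genes say of the sex of the embryos was not tested. These and the genes that follow were named after their values had been seen.

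Further interferon-induced genes with the split were OAS1, an antiviral synthetase, and ISG12(A). OAS1 had a mean of 8.90 in inferred pool 1 and 8.76 in pool 3 against 6.89 and 6.88 in pools 2 and 4. ISG12(A) had 10.41 and 9.48 against 7.37 and 7.77. Not all such genes had the split: HERC5 was low on arrays 6 and 8 only, at 10.13 and 10.09, and TRIM25 was high on arrays 1 and 3 only. The matrix genes FMOD and THBS1 followed the split with 8.81 and 8.76 against 6.83 and 6.87, and 8.96 and 8.22 against 7.21 and 6.62.

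Of the 96 genes with an SD of at least 1, 3 were high on arrays 6 and 8 only, namely the fetal globin gene HBG and the histone genes HIST1H1C and HIST1H2BN, and 7 were high on all arrays of slide 26 only, among them CLU, ENO1, HMOX1, TPI1 and HSP90B1. In 70 of the 96, both arrays of each of 1 to 3 inferred pools were high and no other array was, and 13 were high on a single array. The pairs were chosen for likeness in these same values, and the share over all kept genes was not counted. The 70 are therefore a description and no check of the pairs.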
